A study of Mus musculus with 10 samples.

Results

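The 6 genes described here encode the integrin alpha8 chain (Itga8), its matrix ligand nephronectin (Npnt), the Fraser complex (Fras1, Frem1 and Frem2) and the adaptor of that complex (Grip1). They were measured by 13 probe sets, out of 45101 on the array, each annotated to a single gene symbol, and by 6 of the 18193 genes that could be named. RNA came from 10 pools of metanephric mesenchyme dissected from mouse kidneys at E11.5, with 25 to 30 mesenchymes in a pool and 1 array for each pool. The 5 mutant arrays carried Wnt9b-/- tissue, and the 5 wild-type arrays carried tissue of littermates labelled Wnt9b+/+, which the series' design text gives as Wnt9b+/-. Wnt9b is a Wnt ligand made by the ureteric bud, the epithelium that grows into this tissue, and the comparison shows how the adhesion genes stand when that signal is missing. The bud had been removed with trypsin and pancreatin before RNA was extracted.

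Integrin alpha8 pairs with the beta1 chain on mesenchymal cells around the bud and binds nephronectin, a matrix protein that the bud lays down in its basement membrane. FRAS1, FREM1 and FREM2 are large proteins of epithelial basement membranes that stabilise one another there, and GRIP1 is a PDZ-domain scaffold that brings FRAS1 and FREM2 to the basal cell surface. In mice, loss of Itga8, Npnt, Fras1 or Grip1 can leave the bud unable to invade the mesenchyme, with kidneys missing or delayed and with little Gdnf, the growth factor that draws the bud in. Loss of the human Fraser complex genes causes Fraser syndrome and related disorders, in which kidneys can be absent.

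The stretch around the transcription start, 250 bases before it and 50 after it, is printed for the gene that differed most between the groups, Itga8, and for the Fraser complex gene whose stretch holds the motif searched, Frem2. The sequences are from RefSeq, build GRCm38.p6, and both genes lie on the minus strand. The Itga8 stretch is chr2:12301895-12302194 and the Frem2 stretch is chr3:53657306-53657605. Capitals mark the core motif of TCF/LEF factors, through which canonical Wnt signals act, written CTTTGA and searched on both strands.
Itga8: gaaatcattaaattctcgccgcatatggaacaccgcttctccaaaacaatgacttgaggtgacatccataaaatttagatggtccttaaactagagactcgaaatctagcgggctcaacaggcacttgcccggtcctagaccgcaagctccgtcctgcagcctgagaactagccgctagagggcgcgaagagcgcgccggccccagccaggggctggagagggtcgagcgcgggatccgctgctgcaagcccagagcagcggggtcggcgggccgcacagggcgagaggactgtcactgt
Frem2: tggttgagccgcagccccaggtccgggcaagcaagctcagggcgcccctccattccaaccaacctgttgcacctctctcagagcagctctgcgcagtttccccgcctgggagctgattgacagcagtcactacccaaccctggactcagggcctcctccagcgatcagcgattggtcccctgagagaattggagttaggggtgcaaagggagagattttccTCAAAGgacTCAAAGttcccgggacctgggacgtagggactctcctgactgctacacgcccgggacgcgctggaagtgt
The Itga8 stretch held no such match and the Frem2 stretch held 2. Across 9 stretches of 5 of the genes, 2 held the TCF/LEF core, the other one being 1 of 3 start sites of Grip1, beside 5257 of 32851 mouse promoter stretches of the same length. The site TCAGGTTTC, a MEF3 site bound by Six2 and its relatives, was in none of the 9, beside 0.429% of all stretches. These letters describe only the windows shown, and Fras1 had no entry.

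Array values were probe-set signals on a linear scale, and tests used log2(signal + 1), called log2 signal here. Each gene was represented by its brightest probe set. Any pair of arrays had a correlation between 0.915 and 0.954. Signal at the 5' end of 18S ribosomal RNA split the arrays into 4 with high values (2 mutant, 2 wild type) and 6 with low values (3 mutant, 3 wild type), so values within each set are given where a result rests on them. The label check by Wnt9b itself was not informative, since its log2 signal was 6.23 ± 0.54 in mutant arrays and 6.47 ± 0.14 in wild-type arrays (SD, n = 5 each), and it is not stated whether its probe set lies outside the deletion. Cap mesenchyme markers were well measured, with Six2 at 9.79 ± 0.44 in mutant and 10.45 ± 0.27 in wild-type arrays (SD, n = 5 each). In whole-tissue RNA, fewer cells of a type and less RNA per cell cannot be told apart.

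Itga8 was the member that differed between the genotypes by more than the spread between arrays. The signal of its brightest probe set, 1454966_at, was 589, 857, 715, 674 and 1015 in mutant replicates 1 to 5, against 1394, 1305, 1334, 1239 and 1206 in wild-type replicates 1 to 5. Every mutant array lay below every wild-type array, and the mutant arrays were the more scattered. On the log2 scale Itga8 averaged 9.56 ± 0.31 in mutant and 10.34 ± 0.08 in wild-type arrays (SD, n = 5 each), 1.71-fold lower in the mutant (difference -0.77, SE 0.15, 95% interval -1.11 to -0.44). By limma the unadjusted p was 0.000465, which ranked 20 of 18193 genes, and the adjusted p was 0.391, so Itga8 was not called over all genes. The difference ranked 37 from the lowest among 11434 genes with a mean log2 signal over 6. High-18S arrays alone gave -0.60 and low-18S arrays alone -0.89. With an intensity trend and robust moderation in limma, Itga8 was called at an adjusted p of 0.0499, and over the 24 alternatives the adjusted p ran from 0.0499 to 0.878.

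A second Itga8 probe set, 1427489_at, dimmer than the first, was also lower. Its signal was 166, 107, 191, 98.4 and 140 in mutant replicates 1 to 5, against 470, 242, 220, 337 and 186 in wild-type replicates 1 to 5. The groups overlapped here by 1 array on each side, mutant replicate 3 and wild-type replicate 5. The difference was -1.01 (SE 0.29, 95% interval -1.65 to -0.37), with a limma adjusted p of 0.901 over all 45037 probe sets. The 2 Itga8 probe sets thus gave the same direction, although within the genotypes their deviations were unrelated over the 10 arrays (Pearson r = -0.004 after the group means were removed).

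**Figure D1:**
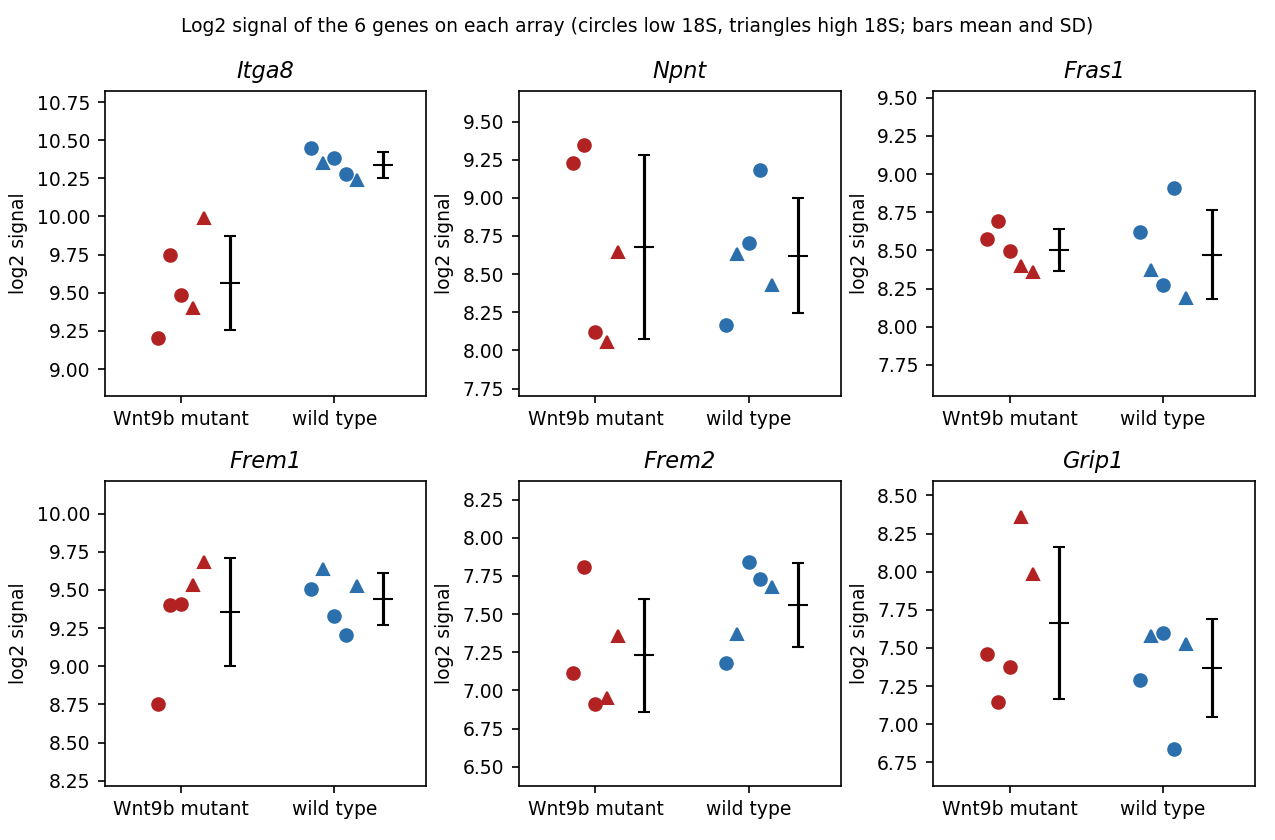
Log2 signal of the brightest probe set of each gene on each array, mutant to the left of wild type, with mean and SD beside the points. Each panel spans 2 log2 units, and circles and triangles are arrays with low and high 18S signal. Itga8 alone among the 6 panels shows groups that do not overlap, at 9.56 ± 0.31 in mutant and 10.34 ± 0.08 in wild-type arrays.

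Among the 6 genes, 1 had an unadjusted p under 0.05 in the lower direction, Itga8, where 2.08% of all genes did, and none had one in the higher direction, where 3.41% did (5.49% in either direction). It was also the gene whose groups did not overlap, which held in the lower direction for 0.555% of all genes and in the higher for 0.654%. At an adjusted p under 0.05 none of the 6 was called, against 0.0055% of all genes. Of the 6 genes, 3 were lower and 3 higher in the mutant, with a median difference of -0.03, beside a median of 0.02 over all genes. Of the 13 probe sets, 6 were lower and 7 higher, and 2 had an unadjusted p under 0.05 in the lower direction, both of Itga8, where 1.95% of all probe sets did. None had one in the higher direction, where 2.56% did (4.51% in either direction). The groups did not overlap for 1 of the 13, in the lower direction, beside 0.424% of all probe sets lower and 0.464% higher, and none was called at an adjusted p under 0.05, beside 0.00444%.

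Nephronectin, the ligand, showed no difference beyond the spread between arrays. The signal of its brightest probe set, 1452106_at, was 598, 651, 277, 265 and 399 in mutant replicates 1 to 5, against 286, 396, 415, 579 and 343 in wild-type replicates 1 to 5. Both genotypes held low and high arrays, and the groups overlapped throughout. Npnt averaged 8.68 ± 0.60 in mutant and 8.62 ± 0.38 in wild-type arrays (SD, n = 5 each), a difference of 0.06 (SE 0.30, 95% interval -0.60 to 0.72), with a limma adjusted p of 0.999. High-18S arrays alone gave -0.18 and low-18S arrays alone 0.22.

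Of the other 4 Npnt probe sets, 3 were higher and 1 lower in the mutant. A probe set with signals of 162 to 254 in mutant and 102 to 257 in wild-type arrays differed by 0.13 (SE 0.25), and one with signals of 58.1 to 122 in mutant and 59.9 to 76.5 in wild-type arrays differed by 0.13 (SE 0.22). The remaining 2 were imprecise. One had signals of 51.1 to 70.0 in mutant and 3.64 to 75.5 in wild-type arrays, with wild-type replicate 3 lowest, and its difference of 0.85 had an SE of 0.68. The other lay near the floor of the array, at 1.29 to 4.38 in mutant and 2.53 to 12.8 in wild-type arrays, with a difference of -0.88 (SE 0.43) that depends on the pseudocount.

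Fras1, the transmembrane protein at the centre of the Fraser complex, showed no difference beyond the spread between arrays. Its signal on 1439019_at was 381, 412, 360, 336 and 327 in mutant replicates 1 to 5, against 392, 330, 309, 480 and 290.5 in wild-type replicates 1 to 5. The mutant values lay inside the wild-type range. The difference was 0.03 (SE 0.15, 95% interval -0.31 to 0.37), and a second probe set, with signals of 75.8 to 250.2 in mutant and 103 to 212 in wild-type arrays, differed by -0.07 (SE 0.33).

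Frem1 (1455280_at), a secreted member of the complex, had signals of 431, 674, 679, 739 and 819 in mutant replicates 1 to 5, against 726, 794, 641, 589 and 736 in wild-type replicates 1 to 5. Mutant replicate 1 was the lowest array, and the other 4 mutant arrays lay within or just above the wild-type values. The difference was -0.08 (SE 0.18, 95% interval -0.48 to 0.31).

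Frem2 (1457038_at), a transmembrane relative of Fras1, had signals of 138, 223, 119, 123 and 163 in mutant replicates 1 to 5, against 144, 165, 228, 211 and 204 in wild-type replicates 1 to 5. Mutant replicate 2 stood among the high wild-type arrays, and the other 4 mutant arrays were below all wild-type arrays but replicate 1. The log2 signal averaged 7.23 ± 0.37 in mutant and 7.56 ± 0.28 in wild-type arrays (SD, n = 5 each), a difference of -0.33 (SE 0.20, 95% interval -0.78 to 0.12, limma adjusted p = 0.955). High-18S arrays alone gave -0.37 and low-18S arrays alone -0.30.

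Grip1 (1435951_at), the intracellular adaptor, had signals of 175, 140, 165, 327 and 252 in mutant replicates 1 to 5, against 156, 190, 193, 113 and 183 in wild-type replicates 1 to 5. Mutant replicates 4 and 5 were above every other array, and the remaining mutant arrays lay among the wild-type ones. The difference was 0.30 (SE 0.25, 95% interval -0.26 to 0.86). The arrays with high values in the mutant were both high-18S arrays, and the difference was 0.62 within that set and 0.08 within the low-18S arrays. The part of the 18S signal in this was not tested. A second Grip1 probe set showed the same 2 mutant arrays highest, at 175 and 155 against 80.0 to 117 on the other 8 arrays, with a difference of 0.12 (SE 0.22).

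**Figure D2:**
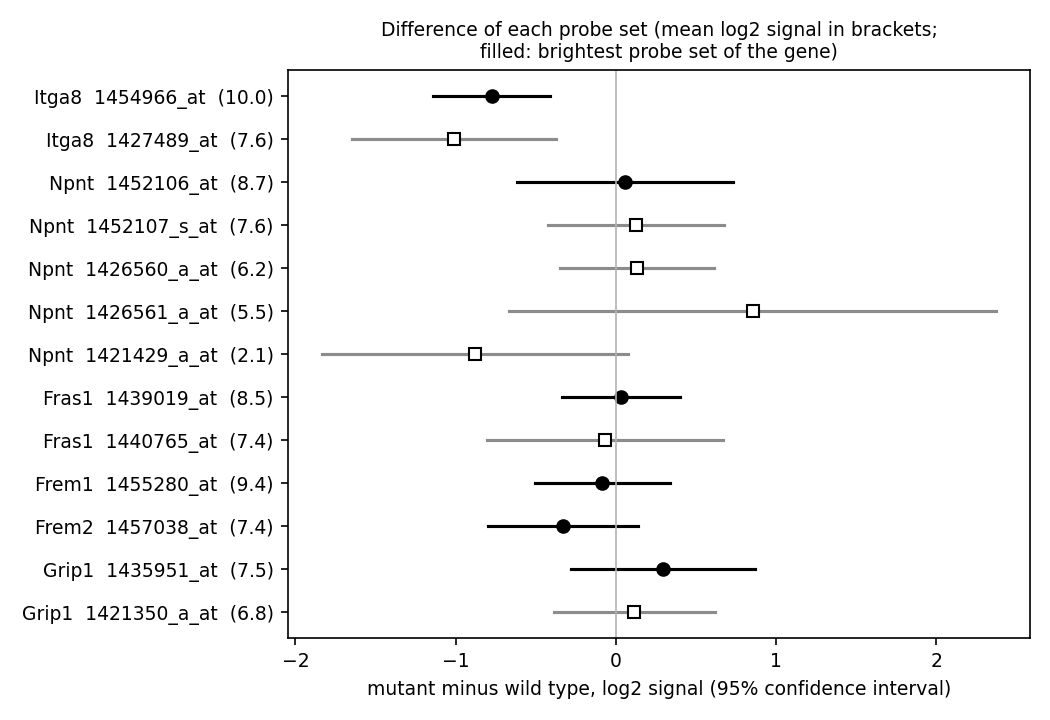
Difference in log2 signal, mutant minus wild type, of the 13 probe sets with 95% confidence intervals from the fit over all probe sets, and mean log2 signal in brackets. Filled points are each gene's brightest probe set. The intervals of the 2 Itga8 probe sets lie below 0, at -1.14 to -0.41 and -1.65 to -0.37, and those of the other 11 include 0.

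The difference in Itga8 was set against markers of the cells that make it. Cap mesenchyme, the progenitors that surround the bud and express Itga8, had 9 of 11 measured markers lower in the mutant (median -0.52). In the lower direction 7 of the 11 had an unadjusted limma p under 0.05, beside 2.08% of all genes. The mean log2 signal of these markers was 8.44 to 9.26 in mutant arrays and 9.37 to 9.58 in wild-type arrays. This list was chosen with its lower level in these arrays known and is not independent evidence of direction. Eya1 was at 10.20 ± 0.40 in mutant and 10.93 ± 0.20 in wild-type arrays (SD, n = 5 each), Sall1 differed by -0.42 and Six2 by -0.66. The markers spanned a wide range. Uncx (-1.28), Cited1 (-1.11) and Crym (-0.89) differed by more than Itga8 (-0.77), and Hoxa11 (0.05), Hoxd11 (0.16) and Osr1 (-0.04) lay near 0, so the Itga8 difference is within the range of its markers.

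Itga8 lay 0.63 ± 0.11 above the cap marker mean in mutant arrays and 0.86 ± 0.08 above it in wild-type arrays (SD, n = 5 each). Relative to the mean of the 11 markers it differed by -0.23 on the log2 scale (exact permutation p = 0.00794, two-sided and the smallest that 252 arrangements allow, 0.0476 after adjustment over 12 such values). High-18S arrays alone gave -0.15 and low-18S arrays alone -0.29. The marker mean includes Hoxa11, Hoxd11 and Osr1, which lay near 0, so the value depends on which markers are in the list. Uncx, Cited1 and Crym each differed by more than Itga8, and other choices of markers were not tested. The adjusted p of 0.0476 rests on Frem1 minus the cap markers sharing the same smallest p. With Itga8 alone at that p, its adjusted p would not have passed 0.05. When genotypes were exchanged only among arrays whose titles share wording, a test added after the data were seen, 48 arrangements remained, the exact permutation p was 0.0417, the smallest they allow, and the adjusted p was 0.167, so the value was not called.

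For the other genes a value relative to the cap markers holds the markers' own lower level, and a gene that is alike in both genotypes comes out higher. Frem1, which by itself differed by -0.08, had a level minus the cap marker mean of 0.42 ± 0.16 in mutant arrays and -0.04 ± 0.11 in wild-type arrays (SD, n = 5 each), a difference of 0.46 (exact permutation p = 0.00794, adjusted 0.0476, and 0.167 within title wording). This is no evidence of a difference in Frem1. Grip1 differed from the cap markers by 0.84 (exact permutation adjusted p = 0.127), Npnt by 0.60 (adjusted p = 0.302), Fras1 by 0.57 (adjusted p = 0.167) and Frem2 by 0.21 (adjusted p = 0.464).

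The values for Itga8 and Frem1 kept their size where the adjusted p did not pass. With all probe sets of a gene averaged they were -0.34 (exact permutation adjusted p = 0.190) and 0.47 (0.0714), and with quantile normalization -0.22 and 0.46 (0.0952 for both). Without 1 of wild-type replicates 1, 2, 3, 4 or 5 they were -0.25 to -0.22 (0.0952 to 0.143) and 0.43 to 0.48 (0.0952). Without 1 of the mutant arrays they stayed past the threshold, at an adjusted p of 0.0317 to 0.0476.

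The brightest Itga8 probe set, 1454966_at, and the cap markers deviated from their group means together, mainly on the mutant arrays. The SD of that probe set was 0.31 in mutant beside 0.08 in wild-type arrays. After the group means were removed, Pearson r was 0.912 over 10 arrays (permutation within groups p = 0.0063, adjusted 0.0378 over 12 relations; Spearman rho = 0.855, p = 0.0121, adjusted 0.141). Without mutant replicates 1 and 5, the arrays farthest from the median, r was 0.781, and within the 6 low-18S arrays it was 0.978. The second Itga8 probe set, 1427489_at, did not show this on those arrays. It stood at 7.38 in mutant replicate 1, where the cap marker mean was lowest at 8.44. In mutant replicate 5, where that mean was highest among mutant arrays at 9.26, it stood at 7.14. Its correlation with the markers was not tested. Frem1 also went with the cap markers (r = 0.869, permutation p = 0.0120, adjusted 0.0482; rho = 0.600, p = 0.106, adjusted 0.255), but r was 0.389 without mutant replicates 1 and 5, so that relation rests on those arrays. The high-18S set of 4 arrays was too small for a value of its own.

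On its brightest probe set, 1452106_at, Npnt went with the ureteric bud markers that remained in the pools. The mean log2 signal of 13 ureteric bud markers ranged from 5.99 to 7.77 in mutant arrays and from 6.40 to 7.52 in wild-type arrays, with a median marker difference of 0.01 and no marker under an unadjusted p of 0.05. The keratin Krt18 averaged 9.10 ± 0.72 in mutant and 9.19 ± 0.46 in wild-type arrays (SD, n = 5 each), Krt8 differed by -0.12 and Calb1 by 0.44. The bud marker Rab25 was dim, at 4.54 in mutant and 3.83 in wild-type arrays. After the group means were removed, Npnt and the bud marker mean had r = 0.826 over 10 arrays (permutation within groups p = 0.00521, adjusted 0.0378; Spearman rho = 0.733, p = 0.0470, adjusted 0.141). It was 0.816 without mutant replicate 4 and wild-type replicate 1, the arrays farthest from the median, and 0.884 within the 6 low-18S arrays. The next brightest Npnt probe set, 1452107_s_at, did not show this on the mutant arrays with the lowest and highest bud marker means. It stood at 7.65 in mutant replicate 4 (marker mean 5.99) and 7.66 in mutant replicate 1 (marker mean 7.77). Its correlation with the markers was not tested. Relative to the bud markers Npnt differed between the genotypes by -0.03 (exact permutation p = 0.889), at 1.55 ± 0.41 in mutant and 1.58 ± 0.20 in wild-type arrays (SD, n = 5 each).

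Grip1 had a negative correlation with the bud markers (r = -0.723, permutation p = 0.0340, adjusted 0.102), which did not pass, and r was -0.408 within the 6 low-18S arrays. Fras1, which the bud also makes, had r = 0.323 (permutation p = 0.294, adjusted 0.504). For Itga8 r was -0.083 (permutation p = 0.863, adjusted 0.863) and for Frem2 0.574 (permutation p = 0.141, adjusted 0.339). Frem1 had r = -0.565 (permutation p = 0.197, adjusted 0.394), with Spearman rho = -0.733 (permutation p = 0.0338, adjusted 0.141). Without mutant replicate 4 and wild-type replicate 1, r was -0.759 for Grip1, 0.725 for Fras1 and -0.783 for Frem1. It was then 0.269 for Frem2 and -0.511 for Itga8. Relative to the bud markers, the differences of Itga8 (-0.86, exact permutation adjusted p = 0.171), Fras1 (-0.06), Frem1 (-0.17), Frem2 (-0.42) and Grip1 (0.21) did not pass. These values differed widely between the 18S sets. High-18S arrays alone gave -0.027 for Itga8, 0.39 for Npnt, 0.67 for Fras1, 0.60 for Frem1, 0.20 for Frem2 and 1.19 for Grip1. Low-18S arrays alone gave -1.42, -0.31, -0.54, -0.69, -0.83 and -0.44 for the same genes, so the sign differed between the sets for all but Itga8.

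**Figure D3:**
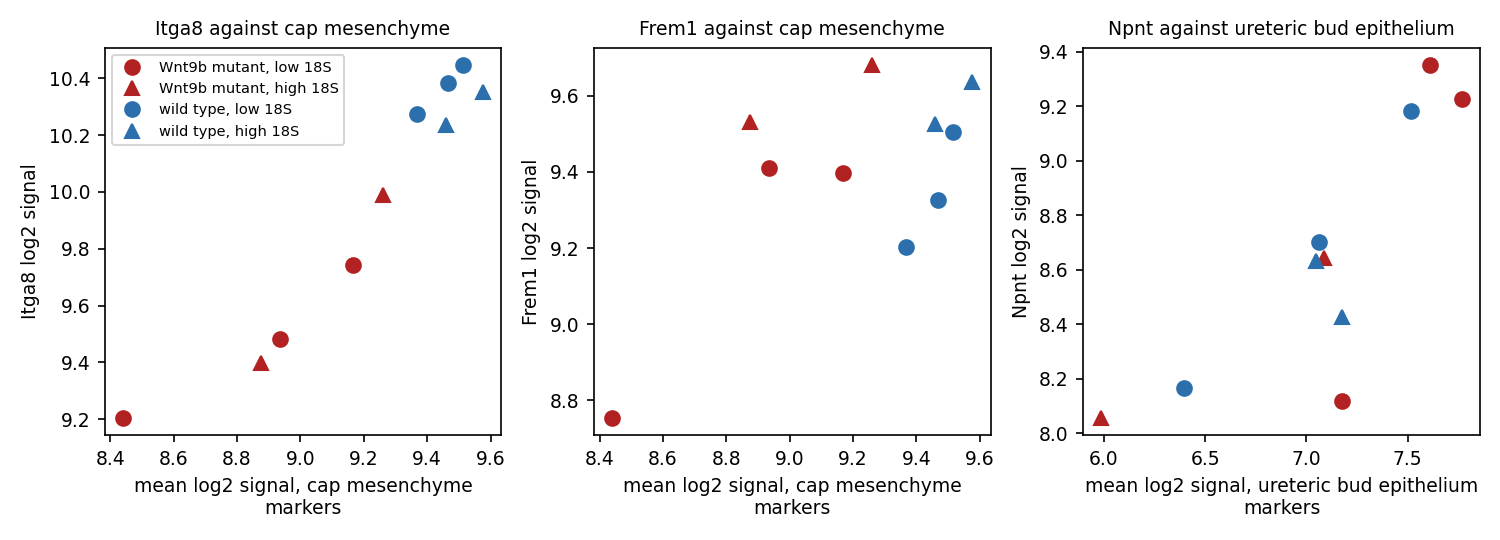
Log2 signal on each gene's brightest probe set, 1 point for each array. Itga8 and Frem1 are set against the mean log2 signal of 11 cap mesenchyme markers, and Npnt against that of 13 ureteric bud markers. On these probe sets Itga8 and the cap markers are lower in all 5 mutant arrays and line up within them. Npnt follows the bud markers in both genotypes (r = 0.826 after the group means were removed). The other Itga8 and Npnt probe sets are not shown.

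Other cell types were present in both genotypes. Markers of smooth muscle, which can also express Itga8, had a median difference of -0.07, with the marker mean at 6.35 to 7.81 in mutant and 6.78 to 7.69 in wild-type arrays, and Acta2 at -0.37 (SE 0.39), Tagln at -0.21 and Des at 0.06. All 7 leukocyte markers were higher in the mutant (median 0.34, marker mean 6.78 to 7.73 in mutant and 6.94 to 7.32 in wild-type arrays), with Csf1r at 0.34, C1qb at 0.15 and C1qa at 0.73, of which C1qa had an unadjusted limma p under 0.05. All 8 endothelial markers were higher (median 0.12, marker mean 8.05 to 8.40 in mutant and 7.90 to 8.37 in wild-type arrays), with Emcn at 0.15, Kdr at 0.11 and Esam at 0.12. Renal stroma had a median of 0.18 over 7 markers, with Aldh1a2 at -0.05, Foxd1 at 0.18 and Meis1 at 0.25, and marker means of 10.51 to 11.06 in mutant and 10.52 to 10.80 in wild-type arrays. In that list 2 of 7 had an unadjusted limma p under 0.05, both higher, Pdgfra (0.36, without overlap) and Tbx18 (0.46). Neuron and neural crest markers had a median of 0.25 over 5 (6.32 to 7.10 in mutant, 6.07 to 6.76 in wild type), with Stmn2 at 0.67, Elavl4 at -0.16 and Tubb3 at 0.25. There 2 of 5 had an unadjusted limma p under 0.05, both higher, Stmn2 (without overlap) and Foxd3 (0.99). Over all genes 3.41% had such a p in the higher direction, and 0.654% had groups without overlap in that direction. Erythroid markers had a median of 0.19 over 5 (8.82 to 9.88 in mutant, 8.73 to 9.58 in wild type), with Hba-x at 0.19 and Alas2 at 0.03, and with Hbb-bh1 level. Their part in the Itga8 difference was not tested.

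The wider pathway was read from 4 lists with 41 entries, of which 38 were measured and Spp1, Frem3 and Ptk2 are not analysed here. None of the 38 was called over all genes by limma, beside 0.0055% of all genes. In the lower direction 4 had an unadjusted limma p under 0.05, beside 2.08% of all genes. In the higher direction 0 did, beside 3.41%. Those 4 were all in the list of Gdnf, its receptor and the genes of that branch, and Ret, the receptor, was not among them.

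The partner chain and the other ligands of integrin alpha8 gave 5 of 6 genes higher in the mutant (median 0.26) and none with an unadjusted p under 0.05. Itgb1, the beta1 chain without which alpha8 is not displayed, was at 10.20 ± 0.33 in mutant and 10.16 ± 0.44 in wild-type arrays (SD, n = 5 each), a difference of 0.04 (SE 0.23, 95% interval -0.48 to 0.56). The beta1 chain pairs with many alpha chains and is made by most cells. Relatives of the Fraser complex and components of the basement membrane were lower in 9 of 14 (median -0.05), and the intracellular machinery of integrin adhesion was higher in 8 of 11 (median 0.065), again with none under an unadjusted p of 0.05 in either list.

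Gdnf, whose expression in the mesenchyme depends on this adhesion system in mice, was 2.18-fold lower in the mutant. It averaged 7.31 ± 0.49 in mutant and 8.43 ± 0.24 in wild-type arrays (SD, n = 5 each), without overlap (difference -1.12, SE 0.23, limma unadjusted p = 0.000731, adjusted 0.403). The other 3 were Etv5, a transcription factor induced by receptor tyrosine kinase signals, at -0.75 (SE 0.23), Spry1, an inhibitor of such signals, at -0.49 (SE 0.18), and Gfra1, the co-receptor for Gdnf, at -0.41 (SE 0.13). The list's median was -0.49, with 5 of 7 genes lower, beside a median of 0.02 over all genes. Etv4 was the remaining lower gene (-1.44, SE 0.67). The 2 higher were the receptor Ret (0.16, SE 0.20) and Wnt11 (0.26, SE 0.18). Etv5, Spry1 and Gdnf were known to be lower when the list was chosen.

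**Figure D4:**
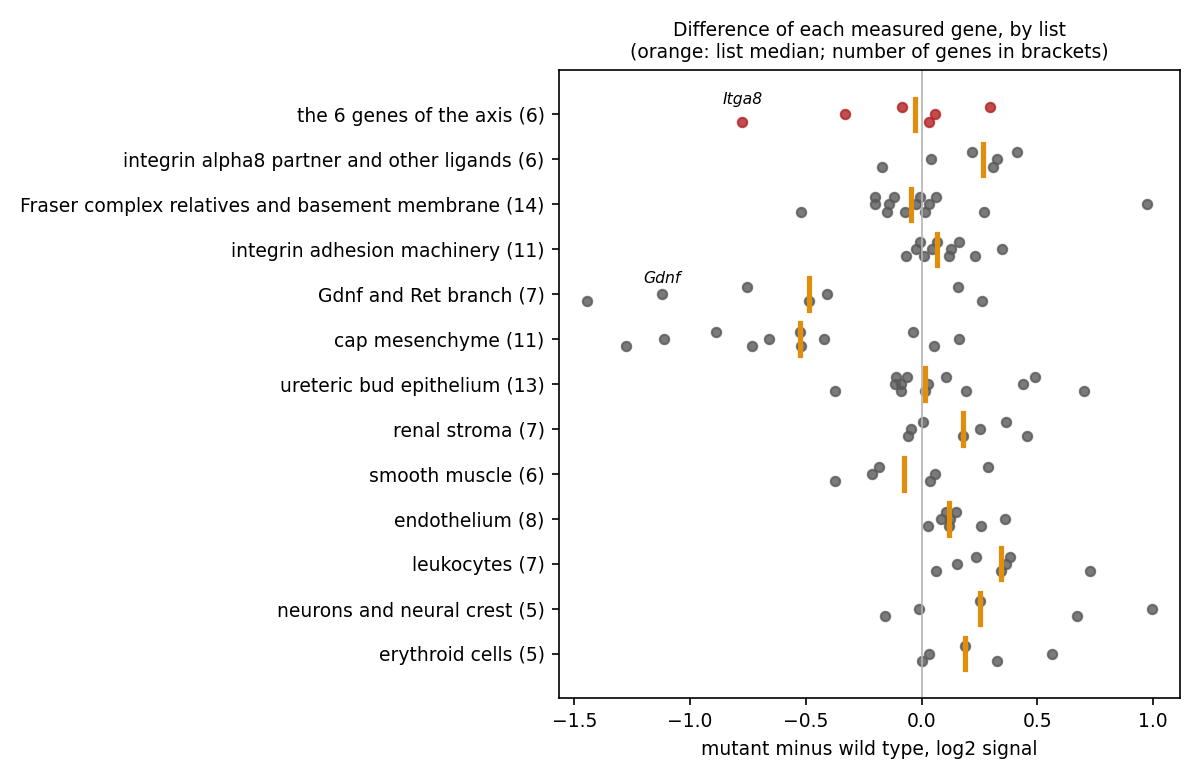
Difference in log2 signal, mutant minus wild type, of each measured gene of the axis, of 4 pathway lists and of 8 cell-type lists, with each list's median in orange and its number of genes in brackets. The medians of the Gdnf branch and of cap mesenchyme lie at -0.49 and -0.52, and those of the other lists between -0.07 and 0.34.

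The genes whose levels over the 10 arrays were most like those of Itga8 were sought among 11433 others with a mean log2 signal over 6. The 5 with the highest Pearson r were Rasef (0.951), Uncx (0.944), Gpx6 (0.944), Btbd11 (0.932) and Cited1 (0.930), and after the group means were removed their r was 0.769, 0.736, 0.807, 0.621 and 0.768. Uncx and Cited1, a homeobox factor and a transcriptional coregulator of the cap mesenchyme, are also in the cap marker list. All 5 had lower means in the mutant, with Rasef at 6.10 ± 0.48 in mutant and 7.56 ± 0.37 in wild-type arrays and Gpx6 at 5.32 ± 1.06 in mutant and 7.34 ± 0.12 in wild-type arrays (SD, n = 5 each). Arrays of the same genotype share that difference, so these values describe likeness in level only. Among the other members, the pooled r with Itga8 was highest for Frem2, at 0.587 (0.372 after the group means were removed), and was -0.058 for Npnt.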

How the data were processed

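Expression was read on Affymetrix mouse arrays, 5 mutant and 5 wild type, each from its own RNA pool per the labels' protocols. The authors deposited linear intensities, 1 per probe set and array. The method of probe summarisation was not found in the labels or headers. In these deposited values each array's mean after trimming 2% at each end was 250.0, so arrays had been scaled alike. Array medians of log2(signal + 1) were 5.99 to 6.30, and no further normalization was applied. The 1 added before the log understates changes of probe sets near the floor of the array.

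Probe sets were named by the platform annotation, with 34958 of 45101 annotated to 1 gene symbol, updated through RefSeq for 34754, 932 to several genes and 9211 unnamed here. The 64 controls were left out. The 2 genotypes were fitted in R 4.3.3 by limma 3.58.1 (lmFit, eBayes, two-sided), with Benjamini-Hochberg adjustment over 18193 genes, each represented by its brightest probe set, and a call at an adjusted p under 0.05. On simulated data for this comparison over 18193 genes, 54 of 100 genes changed by 1 log2 unit and 76 of 100 changed by 2 were recovered, with 10 false calls. That simulation drew independent noise for each gene and array and held many changed genes. In the real data arrays deviated together and 1 gene was called, so these counts check the fit and are not its power here. Single values were compared by exact permutation, and correlations by 100000 permutations within groups (numpy 2.4.6, scipy 1.17.1).

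The members, lists and alternatives were chosen with earlier results of these data known. Named genes were all members, pathway genes with an unadjusted p under 0.05 plus Itgb1 and Gdnf, the 3 brightest markers of each cell type, and the 5 genes most like Itga8. Rab25, Crym, Hoxa11, Hoxd11, Osr1, Pdgfra, Tbx18, Foxd3, Etv4, Ret and Wnt11 were named after their values were seen. The correlations with marker means and the motifs were chosen after the data were seen. The 3 pairs of arrays whose titles share wording deviated together from their group means (r = 0.293 to 0.479), so a block for them was run. Other alternatives changed the probe set rule, the filter on dim genes, the pseudocount, the normalization, the moderation and the arrays included. The pairing comes from the wording of the titles only.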

Additional observations from a re-analysis of the deposited data

Results flagged for a closer look

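Within each group of 5 arrays, the lowest or highest array was set against the group's range for the members' probe sets, the marker and pathway means, the 12 values relative to markers and the other named genes, 142 groups of values in all. By chance 1 in 20 would be picked out, 7.1 of these, and 5 were. None of them was a probe set of the 6 genes. Mutant replicate 2 was low for the macrophage genes C1qb, at a log2 signal of 8.05 against 8.81 to 9.11 in the other mutant arrays, and Csf1r, at 8.10 against 9.18 to 9.58. Wild-type replicate 4 was low for C1qb, at 8.08 against 8.75 to 8.78 in the rest of its group, and high for the endothelial receptor Kdr, at 9.71 against 8.92 to 9.14. Wild-type replicate 3 was low for the smooth muscle actin Acta2, at 9.86 against 10.49 to 10.71.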

How the results depend on the processing

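Itga8 stayed lower under all 24 alternatives, from -0.89 with the mean of its probe sets to -0.60 within the high-18S arrays, and from -0.88 to -0.68 on leaving out 1 array. Its limma adjusted p ran from 0.0499 with an intensity trend and robust moderation, the setting in which it was called, to 0.878. With the block for title wording it was 0.539, and the block changed no call of a member's own difference. Over all genes 1 was called, and 0 with the mean of probe sets, the unmoderated test, the replicate block for title wording, the 18S block, either 18S set alone or without the 2 arrays whose hybridisation controls were brightest, 2 with every probe set, 6 without the dimmest 40% of genes, 10 with trend and robust moderation, and 0 to 2 on leaving out 1 array. Frem2 stayed lower (-0.48 to -0.25) and Grip1 higher (0.08 to 0.62) throughout. The members near 0 changed sign. Npnt was at -0.18 in high-18S arrays alone, -0.090 without the 2 brightest-control arrays and -0.11 to 0.21 on leaving out 1 array. Fras1 was at -0.019 with the mean of its probe sets, -0.013 in low-18S arrays alone, -0.066 without those 2 arrays and -0.041 to 0.14 on leaving out 1. Frem1 was at 0.026 in high-18S arrays alone and -0.17 to 0.066 on leaving out 1. The cause was not tested. Of the 12 values relative to markers, 2 were called. This was 0 with the mean of probe sets or quantile normalization and 0 to 3 on leaving out 1 array. With the exact permutation within the pairs that share title wording and among the unpaired arrays, 0 were called. That test, added after the data were seen, had 48 arrangements, which left almost no room for a call. Relative to bud markers, Npnt was at 0.012 with a pseudocount of 16, and leaving out 1 array gave -0.16 to 0.12 for Npnt, -0.31 to 0.14 for Fras1, -0.50 to 0.14 for Frem1 and -0.25 to 0.46 for Grip1. Npnt probe sets near the floor limit what can be said of that gene's transcripts.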
